A study of Homo sapiens with 6 samples.

Results

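The ADAM, ADAMTS and ADAMTSL genes, which encode membrane-bound and secreted metalloproteases and their protease-free relatives, were followed in TC28a2, a line of immortalised human chondrocytes. Members were the rows of the deposited table whose Entrez ID maps to a protein-coding symbol made of ADAM, ADAMTS or ADAMTSL and a number. All 44 such genes of the RefSeq table had a row among the 28395 of the deposited table: 20 ADAM, 19 ADAMTS and 5 ADAMTSL genes. The cells received a control vector (3 libraries) or a vector for overexpression of FAP (3 libraries), a membrane serine protease known from activated fibroblasts, and RNA was taken 48 hours later. RNA was sequenced by DRUG-seq, in which many samples are processed together at low cost. The labels name 1 cell line, no cell sorting, no treatment other than the vectors, and do not say whether the replicates were separate cultures, so p-values measure a spread between libraries that may be technical.

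ADAM proteins carry a prodomain, a zinc metalloprotease domain, a disintegrin domain and a membrane anchor, and the active ones cut other membrane proteins near the cell surface, a step called shedding. ADAMTS proteins are secreted, carry thrombospondin repeats that hold them in the matrix, and cut large proteoglycans, procollagens and other matrix proteins. In cartilage ADAMTS4 and ADAMTS5 are known as the aggrecanases, the enzymes that cut aggrecan in osteoarthritis. ADAMTSL proteins share the thrombospondin repeats, lack the protease domain and associate with fibrillin microfibrils.

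The site that binds the catalytic zinc separates the members into those that can cut and those that cannot, so it was read from coding sequence (GENCODE release 29, GRCh38, the transcript with the longest coding sequence of each gene). The search was in frame and on the coding strand for the codons of the extended zinc-binding motif of these proteases, 11 codons long. In its full form it fixes 3 histidine codons, 1 glutamate codon and 1 glycine codon, and in its core form it leaves the glycine position free. Of 44 members 26 held the full motif, 5 the core form only and 13 neither. Among all 19669 protein-coding genes 0.31% held the full motif and 0.447% the core form, the genes with the full motif included. The 33 bases are shown 5′ to 3′ for the members with enough counts to be tested, except ADAM9, which also held the full motif. Capitals mark the codons that the motif fixes.
ADAM10: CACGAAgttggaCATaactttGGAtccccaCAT
ADAM12: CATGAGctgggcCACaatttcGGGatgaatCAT
ADAM15: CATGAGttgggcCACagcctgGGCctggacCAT
ADAM17: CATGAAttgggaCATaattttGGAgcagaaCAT
ADAM19: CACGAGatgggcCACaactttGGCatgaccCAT
ADAMTS1: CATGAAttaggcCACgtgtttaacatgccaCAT
ADAMTS2: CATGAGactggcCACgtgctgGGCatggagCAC
ADAMTS6: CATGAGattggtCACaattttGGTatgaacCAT
ADAMTS9: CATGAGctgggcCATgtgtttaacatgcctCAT
ADAMTS10: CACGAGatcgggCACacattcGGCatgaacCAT
ADAMTS12: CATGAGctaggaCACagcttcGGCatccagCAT
ADAMTS14: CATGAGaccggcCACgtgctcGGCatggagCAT
ADAMTS15: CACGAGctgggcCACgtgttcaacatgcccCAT
ADAMTS16: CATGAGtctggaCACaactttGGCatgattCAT

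In these sequences ADAMTS1, ADAMTS9 and ADAMTS15 had the core form, with the codon aac in place of a glycine codon, and ADAMTS4 and ADAMTS8, too low to be tested, were the other core members. The codons lay within 1 exon in 4 of the 14 and spanned 2 exons in 10. The ADAM15 site was in exon 11 at chr1:155056995-155057027 (plus strand), that of ADAM17 in exon 11 at chr2:9510078-9510110 (minus strand), and that of ADAM10 was split between exons 9 and 10 within chr15:58627881-58633225 (minus strand). No match was found in ADAM11, ADAM22 and ADAM23, or in any of the 5 ADAMTSL genes. ADAM2, ADAM7, ADAM18, ADAM29 and ADAM32 also held no match, and all 5 were at 15 counts or fewer over the 6 libraries.

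Libraries held between 5736056 and 13839743 gene counts, and mean totals of the groups differed by less than their SDs (exact permutation test, two-sided, p = 0.5, smallest possible p = 0.1). FAP counts were 0, 11 and 5 in the control libraries and 1396, 3182 and 4733 in the FAP libraries, so that each library matched its label. The library of FAP replicate 3 was the least like the others of its group (chi-square per degree of freedom 12.9 and 12.4 over genes, against 4.83 between FAP replicates 1 and 2 and 4.33 to 5.47 between controls), so members whose value moved most without it are given without it too. Of 16 chondrocyte markers 1, SOX9, passed the low-count filter. COL2A1 had 13 counts over all libraries, ACAN 52 and CHAD 0, so that the defining cartilage matrix genes were near absent. Levels are in CPM (gene counts relative to library size, scaled between libraries by TMM). Summed markers of endothelial cells lay between 0.712 and 0.983 CPM with the control vector and between 1.84 and 2.55 CPM with the FAP vector. Most of this difference was PECAM1 (means 0.444 and 1.70 CPM), and CDH5 had 0 counts. Those of leukocytes lay between 20.2 and 21.8 and between 18.7 and 22.9 CPM, mostly CD68 (means 16.1 and 15.6 CPM). Fibroblast markers summed to 592 to 858 and 764 to 915 CPM, mostly COL1A1. Epithelial markers summed to 1313 to 1507 and 1408 to 1540 CPM, nearly all KRT8 and KRT18. The part of other cells in the members' values was not tested. In bulk RNA a lower level can come from fewer cells of a type or from less RNA per cell, and these cannot be told apart.

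Of the 44 members, 20 had enough counts to be tested (filterByExpr by group, minimum count 10): 9 ADAM, 9 ADAMTS and 2 ADAMTSL genes. The plot of counts for all members shows a wide range, from 0 to 5030 counts over the 6 libraries. The 24 untested members never exceeded 24 counts in a library. Their largest totals were 60 for ADAMTS7, 44 for ADAMTS13, 33 for ADAMTS17, 29 for ADAM8, 27 for ADAMTSL1 and 26 for ADAM20. Both cartilage aggrecanases were among the untested, with 14 counts of ADAMTS4 and 19 of ADAMTS5 over all libraries. ADAM28, ADAM29, ADAM30 and ADAMTS19 had 0 counts, which over the 6 libraries allows a level of up to 0.0490 CPM (3 counts, counting error only). With no low-count filter 20 of the 24 had a value and 0 were called, with no adjusted p below 0.7059 and SEs from 0.65 to 2.27 on the log2 scale. ADAMTS7 was then at -0.55 (SE 0.65), ADAMTS4 at 0.92 (SE 1.43) and ADAMTS5 at -0.64 (SE 1.27). ADAM20 and ADAM21 are close copies of each other, and reads of such copies may be split between them.

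**Figure D1:**
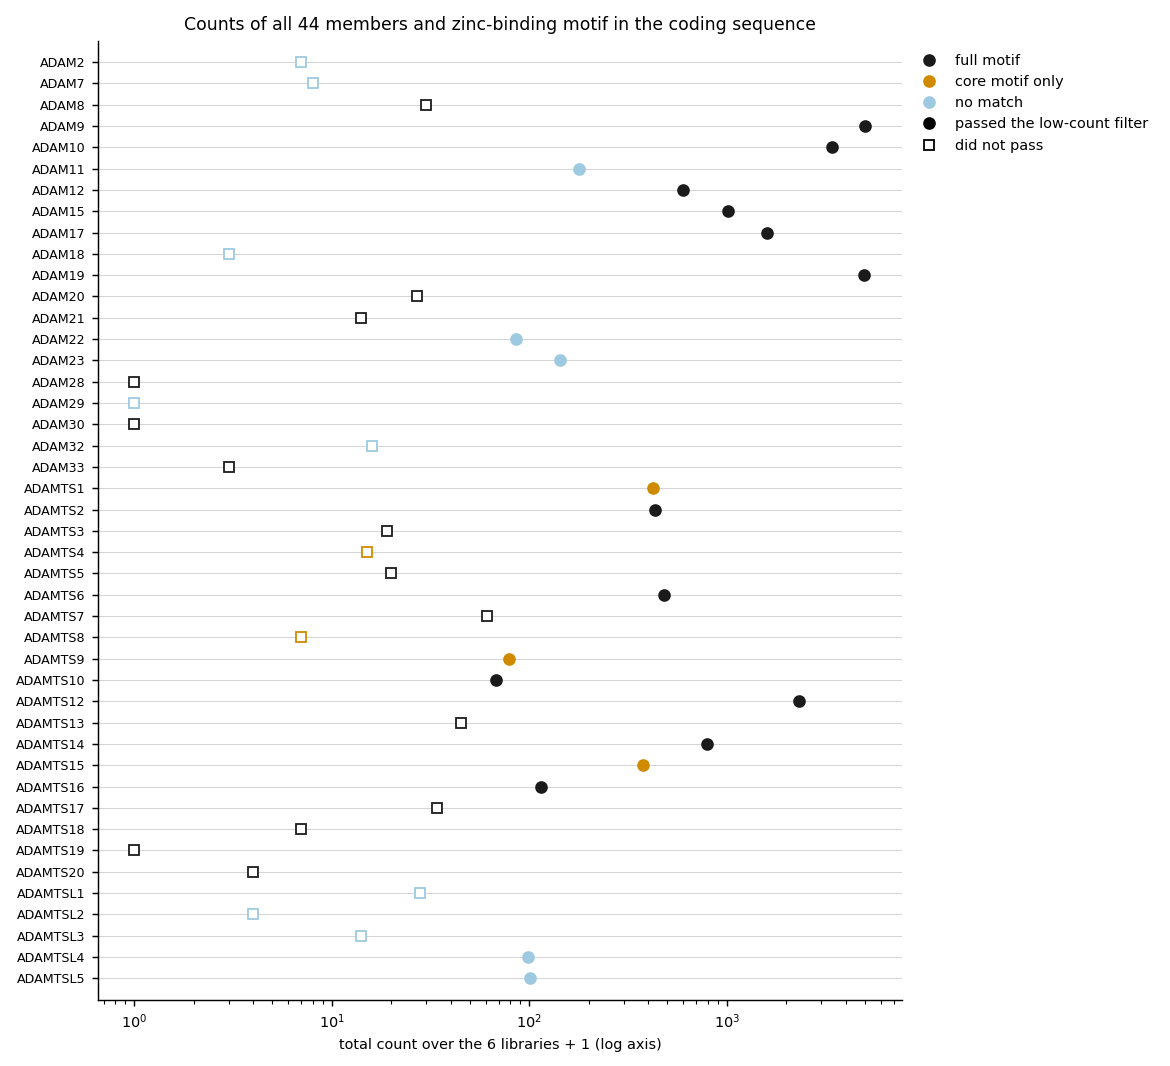
Total count of each of the 44 members over the 6 libraries plus 1, on a log axis; filled circles passed the low-count filter, open squares did not, and colour gives the form of the zinc-binding motif found in the coding sequence. ADAM9, ADAM19 and ADAM10 had the most counts, and 4 members lay at 0.

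Levels were compared between genes per kilobase of the longest GENCODE transcript. In control libraries the order of mean levels was ADAM9 (20.9 ± 2.87 CPM per kb, SD, n = 3), ADAM19 (13.4 ± 0.233), ADAM17 (6.17 ± 0.280), ADAM10 (4.10 ± 0.784), ADAM15 (4.04 ± 0.690), ADAMTS12 (3.96 ± 0.432) and ADAMTS14 (2.56 ± 0.353). The control libraries of ADAM9, ADAM19 and ADAM17 did not overlap with those of the next gene in the order, whereas ADAM10, ADAM15 and ADAMTS12 overlapped with each other. The other 13 tested members had means between 0.105 and 1.54 CPM per kb. The 5 highest genes of this order were ADAMs with the full motif, and the 3 tested ADAMs without a match stood at 0.603 (ADAM11), 0.416 (ADAM23) and 0.161 CPM per kb (ADAM22). Where along a transcript DRUG-seq reads fall is not given in the sources used here. If reads gather at transcript ends, counts do not scale with transcript length, and the order per kilobase does not hold. In CPM, with no division by length, the highest control means were ADAM19 (87.0), ADAM9 (80.1), ADAM10 (46.9), ADAMTS12 (34.7) and ADAM17 (27.2). This differs from the order per kilobase.

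No member was called between FAP and control libraries at an adjusted p under 0.05 (edgeR's quasi-likelihood test, Benjamini-Hochberg over 13373 genes), where 0.224% of all tested genes were called. DESeq2 gave an adjusted p for 12 of the 20 and called 0 of them, with 0.726% of all genes called, and it gave none for the other 8, ADAMTS10 among them. The limma-voom fit called 0 of 20, with 0.157% of all genes called. At an unadjusted p under 0.05 there were 5 of 20 members, against 9.91% of all genes. Higher in FAP libraries were ADAM10, ADAM15 and ADAMTS10, against 4.61% of all genes, and lower were ADAM12 and ADAM19, against 5.3%. FAP and control libraries did not overlap in 6 of 20 members, against 16% of all genes, with 2 above (background 7.96%) and 4 below (background 7.99%). ADAMTS10, counted in both comparisons, passed the low-count filter through its FAP libraries only. The median log2 fold change of the 20 was -0.03 with 9 positive, against 0.00 over all tested genes with 50.7% positive.

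**Figure D2:**
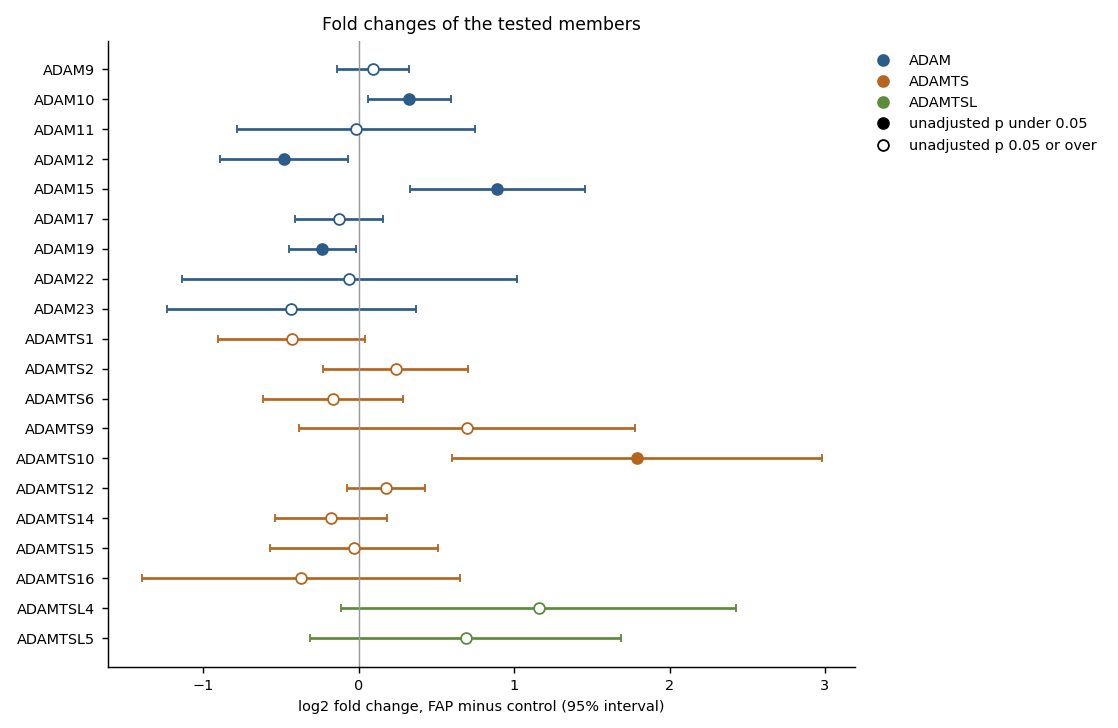
Log2 fold change of FAP minus control for the 20 tested members, with approximate 95% intervals from the edgeR fit; filled points had an unadjusted p under 0.05. ADAM10, ADAM15 and ADAMTS10 lie to the right of 0 and ADAM12 and ADAM19 to the left, and no adjusted p was under 0.05.

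Summed over each family, ADAM genes were at 274 ± 2.91 CPM with the control vector and 282 ± 8.04 CPM with the FAP vector (SD, n = 3 each; two-sided exact permutation test, p = 0.2). The ADAMTS sum was 84.4 ± 6.54 and 85.6 ± 5.56 CPM (exact permutation test, p = 0.7). Both differences were smaller than the SD of the FAP libraries. The ADAMTSL sum was 2.99 ± 0.259 and 4.63 ± 1.26 CPM, and its groups did not overlap (exact permutation test, p = 0.1, the smallest this design can give). In FAP replicate 3 ADAMTSL4 made up 4.08 of 6.08 CPM, and in FAP replicate 1 ADAMTSL5 made up 3.19 of 3.99 CPM. Taken singly, the groups of each of these genes overlapped.

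ADAM10 and ADAM17 are the general sheddases, which release Notch receptors, growth factor precursors, TNF and cytokine receptors. ADAM10 (Entrez 102; GRCh38.p14 chromosome 15) was at 37.8, 47.1 and 55.7 CPM in control replicates 1, 2 and 3 and at 52.7, 62.0 and 62.7 CPM in FAP replicates 1, 2 and 3. Control replicate 3 lay above FAP replicate 1, so the groups overlapped, although the FAP mean was higher. The log2 fold change was 0.33 (SE 0.13, 95% interval 0.06 to 0.60, adjusted p = 0.405). It was 0.20 without control replicate 1, the lowest library, and 0.47 without control replicate 3. ADAM17, also called TACE, was at 28.3, 25.9 and 27.5 CPM with the control vector and 21.2, 24.5 and 28.4 CPM with the FAP vector. Its groups overlapped, with a log2 fold change of -0.13 (SE 0.14, 95% interval -0.41 to 0.16, adjusted p = 0.801). Leaving out FAP replicate 3, its highest library, gave -0.24, and leaving out FAP replicate 1, its lowest, gave -0.04. ADAM17 overlaps IAH1 (11.04 CPM) in the genome, and with no strand setting given reads in the shared stretch cannot be assigned with certainty.

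ADAM9, ADAM12 and ADAM19 are the meltrins, known from muscle and bone. ADAM12, which sheds HB-EGF and cuts IGF-binding proteins and is known from mesenchymal tissue, was at 13.7, 12.3 and 10.1 CPM with the control vector and 9.73, 8.12 and 8.004 CPM with the FAP vector. Every FAP library lay below every control, by a small gap between control replicate 3 and FAP replicate 1. This gave a log2 fold change of -0.48 (SE 0.20, 95% interval -0.89 to -0.07, adjusted p = 0.416). ADAM19, which processes neuregulins, was at 86.6, 88.7 and 85.8 CPM with the control vector and 66.5, 80.4 and 74.3 CPM with the FAP vector. The controls were close together and all FAP libraries lay below them. FAP minus control gave a log2 fold change of -0.23 (SE 0.10, 95% interval -0.45 to -0.02, adjusted p = 0.453). ADAM9 was at 73.4 to 92.8 CPM with the control vector and 78.8 to 91.9 CPM with the FAP vector, with overlapping groups and a log2 fold change of 0.09 (SE 0.11, adjusted p = 0.824), or 0.03 without FAP replicate 3 and 0.20 without control replicate 1. ADAM9 overlaps TM2D2 (42.8 CPM).

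ADAM15, or metargidin, an ADAM of cartilage and endothelium whose disintegrin domain holds an integrin-binding sequence, had the smallest unadjusted p of the members. Its counts were 53, 125 and 157 in controls and 247, 225 and 202 in FAP libraries. Scaled to library size these were 9.68, 13.7 and 12.4 CPM and 39.4, 15.9 and 14.97 CPM. FAP replicate 1 stood far above the other 5 libraries, while FAP replicates 2 and 3 lay just above the highest control. The log2 fold change was 0.89 (SE 0.27, 95% interval 0.33 to 1.46, adjusted p = 0.25). Without FAP replicate 1 it was 0.35 (adjusted p = 0.538), without FAP replicate 3 it was 1.13 (adjusted p = 8.704e-04), and with no low-count filter it was 0.89 (adjusted p = 1.107e-04). ADAM15 therefore passed the threshold in 2 of 14 alternative fits. Both kept FAP replicate 1, as did every alternative fit except that without FAP replicate 1. Of all genes 0.718% were called with no low-count filter and 1.86% without FAP replicate 3.

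On either side of ADAM10, ADAM12, ADAM15, ADAM19 and ADAMTS10, 20 genes that passed the low-count filter were then compared. This choice was made after the members' values were seen. The genes need not be adjacent. On chromosome 15 CGNL1 ends at 57550717 and ADAM10 starts at 58588809. On chromosome 10 ADAM12 ends at 126388477 and DOCK1 starts at 126905428. Of the 20 genes 0 were called, against 0.224% of all genes. At an unadjusted p under 0.05 in the edgeR test there were 3 of 20, against 9.91% of all genes. Beside ADAM15 on chromosome 1, EFNA4, an ephrin ligand, was at 14.0 to 17.2 CPM with the control vector and 16.4, 18.4 and 13.6 CPM with the FAP vector (log2 fold change 0.09, adjusted p = 0.901). EFNA3 was at 2.45 to 3.82 CPM with the control vector and 6.38, 3.39 and 2.22 CPM with the FAP vector (0.29, adjusted p = 0.843). FLAD1 was at 48.6 to 59.2 CPM with the control vector and 48.4, 49.7 and 42.2 CPM with the FAP vector (-0.22, adjusted p = 0.548). ZBTB7B was at 1.46, 2.18 and 2.37 CPM with the control vector and 2.23, 3.67 and 1.85 CPM with the FAP vector (0.34, adjusted p = 0.821). EFNA3 was highest in FAP replicate 1, as ADAM15 was, and EFNA4, FLAD1 and ZBTB7B were not. The antisense gene DCST1-AS1, which overlaps ADAM15, was at 1.40 CPM.

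**Figure D3:**
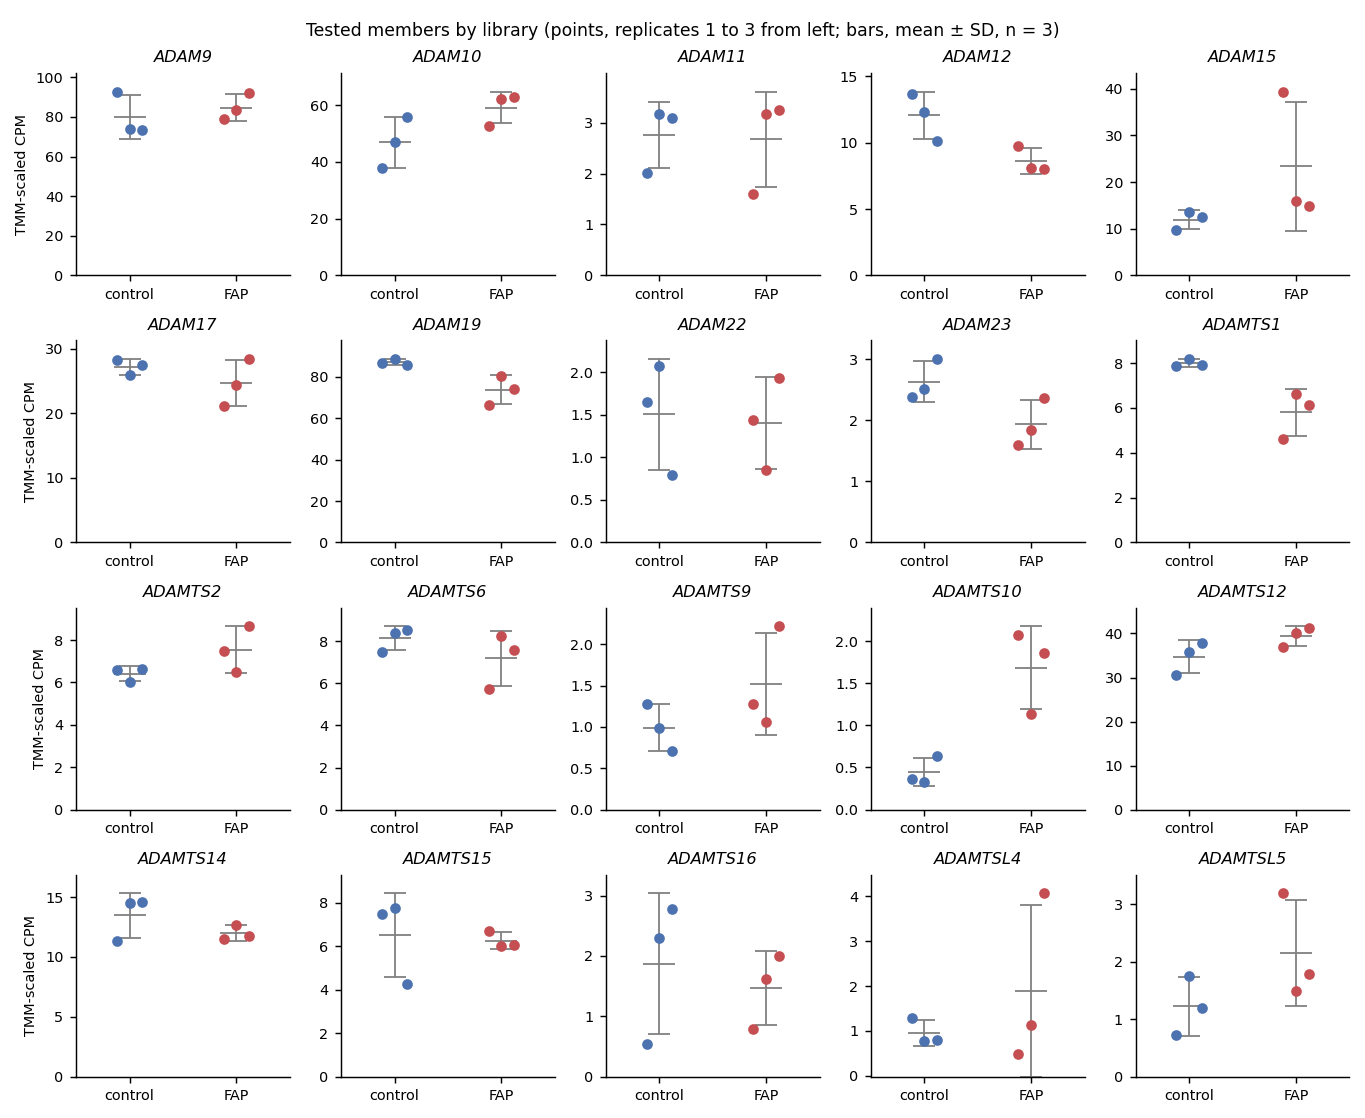
TMM-scaled CPM of each tested member in the 3 control and 3 FAP libraries (replicates 1 to 3 from the left within a group; bars, mean ± SD, n = 3; each panel has its own axis). FAP replicate 1 of ADAM15 and FAP replicate 3 of ADAMTSL4 stand above the other libraries, and FAP libraries of ADAM12, ADAM19, ADAM23 and ADAMTS1 lie below all controls.

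**Figure D4:**
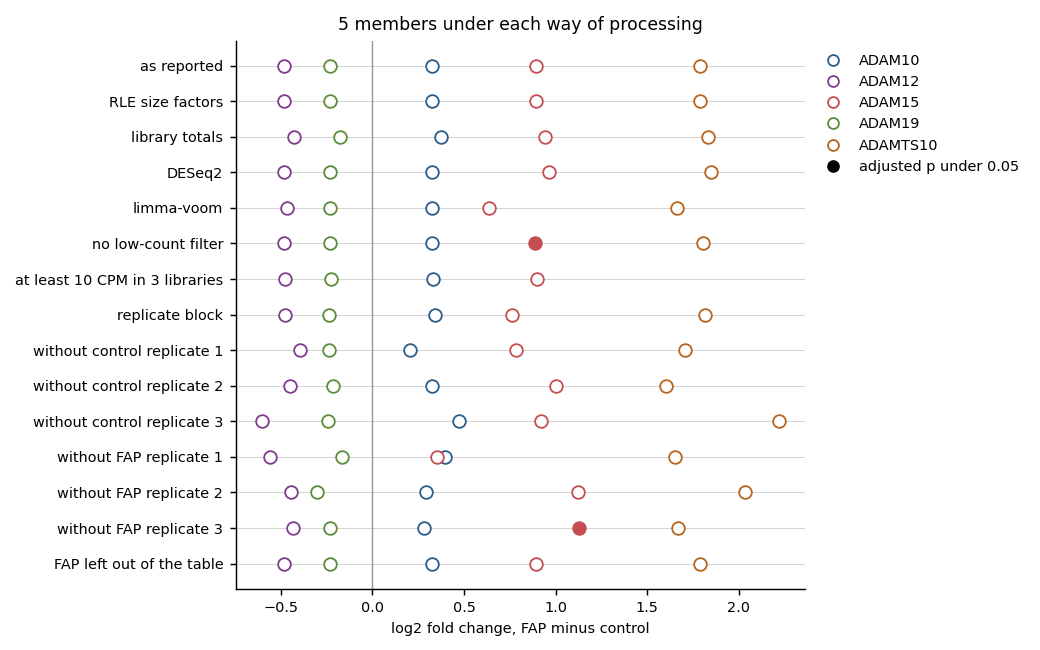
Log2 fold change of the 5 members with an unadjusted p under 0.05 in the reported fit and in each alternative fit; filled points had an adjusted p under 0.05. ADAM15 runs from 0.35 to 1.13 and is filled in 2 fits, and the other 4 members are open throughout.

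ADAM11, ADAM22 and ADAM23, the neural ADAMs without a zinc-binding match, act as adhesion proteins and as receptors of LGI proteins. Of these ADAM23 was at 2.37, 2.51 and 3.01 CPM with the control vector and 1.60, 1.84 and 2.37 CPM with the FAP vector. The highest FAP library lay just under the lowest control, and the log2 fold change was -0.43 (SE 0.39, 95% interval -1.24 to 0.37, adjusted p = 0.749). ADAM11 (-0.02, SE 0.37) and ADAM22 (-0.06, SE 0.52) had overlapping groups, with levels between 0.791 and 3.26 CPM. Without FAP replicate 3 the values were -0.61 for ADAM23, -0.16 for ADAM11 and -0.43 for ADAM22. The intervals of these 3 genes reach past 1.5-fold on at least 1 side, so changes of that size were not excluded on that side.

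Among ADAMTS genes, those that cut the large proteoglycans aggrecan and versican were at low levels in both groups, but not they alone. Control means were 7.99 CPM for ADAMTS1 and 6.51 CPM for ADAMTS15, against 6.41 CPM for ADAMTS2 and 8.15 CPM for ADAMTS6. ADAMTS1 was at 7.85, 8.19 and 7.91 CPM with the control vector and 4.63, 6.63 and 6.15 CPM with the FAP vector. All FAP libraries lay below the 3 controls, which were close together. The difference on the log2 scale was -0.43 (SE 0.23, 95% interval -0.90 to 0.04, adjusted p = 0.543). ADAMTS15 was at 7.49, 7.76 and 4.27 CPM with the control vector and 6.70, 5.999 and 6.08 CPM with the FAP vector, with overlapping groups (-0.03, SE 0.26, adjusted p = 0.981), and -0.29 without control replicate 3 and 0.15 without control replicate 2. ADAMTS9 was at 0.712 to 1.28 CPM with the control vector and 1.28, 1.06 and 2.22 CPM with the FAP vector (0.70, SE 0.52, adjusted p = 0.688), and 0.27 without FAP replicate 3. Over the 7 proteoglycan-cutting genes, ADAMTS4, ADAMTS5, ADAMTS8 and ADAMTS20 included, the summed level was 16.2 ± 2.20 CPM with the control vector and 14.3 ± 1.06 CPM with the FAP vector (SD, n = 3 each), with overlapping libraries.

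The procollagen N-proteinases ADAMTS2, ADAMTS3 and ADAMTS14 remove the amino-terminal propeptides of fibrillar collagens. ADAMTS14 was at 11.3, 14.5 and 14.6 CPM with the control vector and 11.5, 12.7 and 11.8 CPM with the FAP vector, and ADAMTS2 at 6.58, 6.01 and 6.65 and at 7.50, 6.49 and 8.67 CPM. Both had overlapping groups, with log2 fold changes of -0.18 (SE 0.17, adjusted p = 0.773) and 0.24 (SE 0.22, adjusted p = 0.77). Without FAP replicate 3 ADAMTS2 was at 0.11, and without control replicate 1 ADAMTS14 was at -0.27. With ADAMTS3, which had 18 counts in all, their sum was 20.3 ± 1.37 CPM with the control vector and 19.8 ± 0.824 CPM with the FAP vector (SD, n = 3 each). ADAMTS12, which like ADAMTS7 degrades cartilage oligomeric matrix protein, was the ADAMTS gene with the highest level per kilobase. It was at 30.5, 35.8 and 37.8 CPM with the control vector and 36.9, 40.0 and 41.4 CPM with the FAP vector, with a log2 fold change of 0.18 (SE 0.12, 95% interval -0.07 to 0.43, adjusted p = 0.658), and 0.10 without control replicate 1. Its FAP replicate 1 lay below control replicate 3.

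ADAMTS10 and ADAMTS6 are paralogs tied to fibrillin microfibrils, ADAMTS10 being a gene of Weill-Marchesani syndrome, with short stature and stiff joints. ADAMTS10 had counts of 2, 3 and 8 in controls and 13, 16 and 25 in FAP libraries, or 0.365, 0.328 and 0.633 CPM and 2.07, 1.13 and 1.85 CPM. Each FAP library lay above each control, from few reads. Every control was under 10 counts. The low-count filter, which scales the minimum count to library size, was passed through the FAP libraries only. The log2 fold change was 1.79 (SE 0.57, 95% interval 0.60 to 2.98, adjusted p = 0.284), the largest among the tested members. It lay between 1.60 and 2.22 in every alternative fit that tested it, with no adjusted p below 0.271. Beside it on chromosome 19, ZNF414 was at 6.21, 5.68 and 6.41 CPM with the control vector and 9.73, 11.998 and 7.34 CPM with the FAP vector, also above every control (0.67, SE 0.23, unadjusted p = 0.008843, adjusted p = 0.326). HNRNPM, on the same side, had a value of -0.24 (edgeR test, unadjusted p = 0.0295). DOCK1, among the genes compared for ADAM12, had 0.28 (edgeR test, unadjusted p = 0.0455). ADAMTS6 was at 7.49, 8.41 and 8.55 CPM with the control vector and 5.74, 8.26 and 7.56 CPM with the FAP vector (-0.16, SE 0.22, adjusted p = 0.843), so its groups overlapped, and -0.05 without FAP replicate 1. ADAMTS16, a gene linked to blood pressure and kidney, was at 0.548 to 2.77 CPM with the control vector and 0.798 to 2.00 CPM with the FAP vector (-0.37, SE 0.49, adjusted p = 0.843), or -0.63 without FAP replicate 3 and 0.01 without control replicate 3.

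The tested ADAMTSL genes, ADAMTSL4 and ADAMTSL5, both bind microfibrils. ADAMTSL4 had 7, 7 and 10 counts in controls and 3, 16 and 55 in FAP libraries, or 1.28, 0.765 and 0.791 CPM and 0.479, 1.13 and 4.08 CPM. FAP replicate 3 alone was high, and FAP replicate 1 was the lowest of all 6 libraries. On the log2 scale the difference was 1.16 (SE 0.61, adjusted p = 0.548), and -0.03 without FAP replicate 3. ADAMTSL5 was at 0.731, 1.75 and 1.19 CPM with the control vector and 3.19, 1.48 and 1.78 CPM with the FAP vector (0.69, SE 0.48, adjusted p = 0.662), and 0.37 without FAP replicate 1, its highest library.

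The proteins that activate, hold back or are cut by these enzymes were read from 6 lists of 86 genes, of which 67 were tested and 0 called, against 0.224% of all genes. DESeq2 gave an adjusted p for 60 of them and called 2, HBEGF and IGFBP5, both lower, where it called 0.469% of all genes lower, and limma-voom called 0. At an unadjusted p under 0.05 there were 11, against 9.91% of all genes. Of 6 inhibitors 4 were tested, and 1, TIMP2, had an unadjusted p under 0.05. TIMP2, an inhibitor of many matrix metalloproteases, was at 184, 193 and 189 CPM with the control vector and 158, 163 and 138 CPM with the FAP vector (log2 fold change -0.30, SE 0.10, adjusted p = 0.287). TIMP3, the matrix-bound inhibitor of ADAM17, ADAMTS4 and ADAMTS5, was at 259, 319 and 292 CPM with the control vector and 360, 344 and 294 CPM with the FAP vector (0.19, SE 0.11, adjusted p = 0.56), with overlapping groups, and 0.12 without control replicate 1.

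All 16 genes of maturation and trafficking were tested, with 10 positive and 6 negative values and a median of 0.02. RHBDF2, which encodes iRhom2, the partner that carries ADAM17 to the cell surface, was at 22.5, 20.98 and 18.8 CPM with the control vector and 14.8, 16.2 and 11.7 CPM with the FAP vector. All FAP libraries lay below all controls (log2 fold change -0.53, SE 0.16, adjusted p = 0.25). PCSK7, a proprotein convertase of the furin family, was at 12.1, 16.3 and 18.4 and at 22.3, 19.9 and 20.1 CPM (0.38, SE 0.16, adjusted p = 0.443), with all FAP libraries above the controls, and 0.25 without control replicate 1. LRP1, the receptor that clears ADAMTS4, ADAMTS5 and TIMP3 from cartilage, had 0.17 (SE 0.13, adjusted p = 0.702), and 0.08 without FAP replicate 3.

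Of 30 shed membrane proteins 22 were tested, 12 positive and 10 negative, with a median of 0.01. HBEGF, an EGF receptor ligand released by ADAM12 and ADAM17, was at 103, 79.5 and 85.6 CPM with the control vector and 44.5, 63.0 and 70.4 CPM with the FAP vector. The groups did not overlap, and the log2 difference was -0.57 (SE 0.14, adjusted p = 0.11). It was -0.41 without FAP replicate 1, its lowest library, and -0.70 without FAP replicate 3. CD44, the hyaluronan receptor shed by ADAM10 and ADAM17, was at 409, 400 and 427 CPM with the control vector and 325, 346 and 356 CPM with the FAP vector (-0.26, SE 0.10, adjusted p = 0.358), again without overlap. Of 4 receptors of shed growth factors EGFR (0.14, adjusted p = 0.837) and ERBB2 (-0.06, adjusted p = 0.945) were tested, and both turned sign when single libraries were left out. Of 9 integrins that bind disintegrin domains 8 were tested, 2 positive and 6 negative, with a median of -0.09. ITGAV (0.21, adjusted p = 0.575) and ITGB5 (-0.12, adjusted p = 0.731) had the smallest p-values of these, and none was under 0.05 before adjustment.

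Of 21 matrix substrates and other extracellular substrates 15 were tested, 11 positive and 4 negative, with a median of 0.21, and 5 were higher and 1 lower at an unadjusted p under 0.05. Of all genes 50.7% were positive, 4.61% were higher and 5.3% lower at that p. BGN, or biglycan, a small proteoglycan cut by ADAMTS enzymes, was at 47.1, 52.5 and 61.6 CPM with the control vector and 63.4, 99.7 and 69.3 CPM with the FAP vector (0.53, SE 0.14, adjusted p = 0.189), and its value was 0.30 without FAP replicate 2, its highest library. VCAN, or versican, the large proteoglycan cut by ADAMTS1, ADAMTS9 and ADAMTS15, was at 29.04, 19.99 and 26.9 CPM and at 33.4, 30.1 and 35.9 CPM (0.40, SE 0.14, adjusted p = 0.358), and 0.25 without control replicate 2, its lowest library. IGFBP5, an IGF-binding protein cut by ADAM12 and ADAM9, was at 34.5, 33.2 and 36.2 CPM with the control vector and 25.7, 24.6 and 22.1 CPM with the FAP vector (-0.53, SE 0.12, adjusted p = 0.104). In each of these 3 genes the groups did not overlap, BGN and VCAN being above and IGFBP5 below the controls. Among the tested genes of this list COL3A1, COL5A1 and THBS1 also lay above all controls. Of all tested genes 7.96% lay above and 7.99% below in this way. BGN and IGFBP5 had been named for the smallest p-values of the list. ACAN, or aggrecan, had 6, 15 and 11 counts in controls and 2, 12 and 6 in FAP libraries and was not tested.

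**Figure D5:**
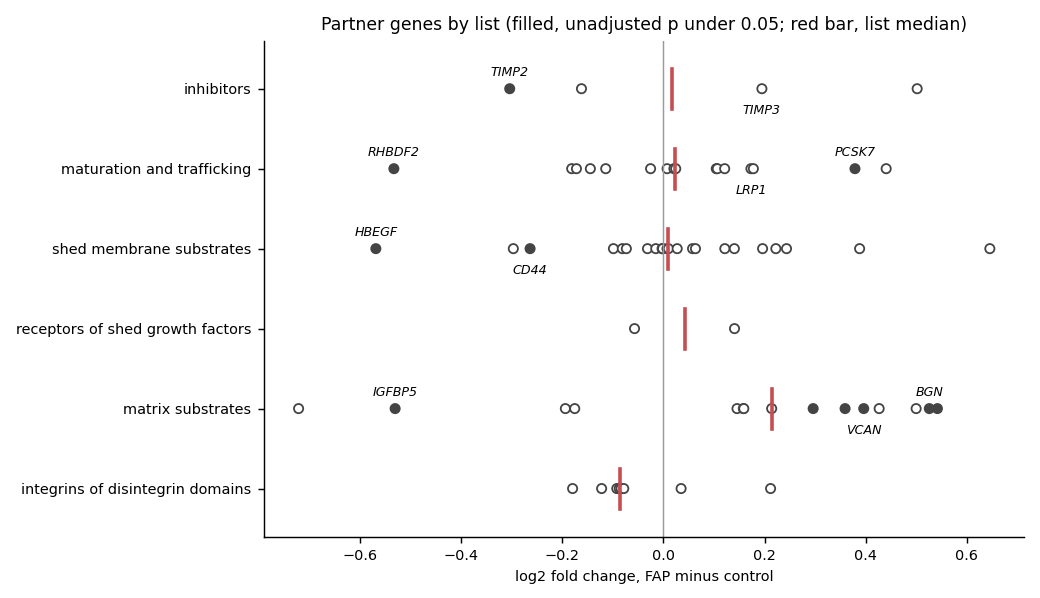
Log2 fold change of FAP minus control for the 67 tested partner genes, by list; filled points had an unadjusted p under 0.05 and the red bar is the list's median. HBEGF, IGFBP5 and RHBDF2 lie at -0.57, -0.53 and -0.53, BGN at 0.53, and the list medians run from -0.09 to 0.21.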

How the data were processed

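The authors deposited whole-number read counts per Entrez gene ID for 6 DRUG-seq libraries, not normalized. HISAT2, featureCounts and Subread and the GRCh38 build are named, per the submitters' processing notes. Not given in the sources used here are versions, the strand setting, the handling of reads with many alignments and whether molecular identifiers were counted. Unstranded counting can move reads between overlapping genes, and without identifiers amplification copies count as reads.

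Of 28395 IDs, 27745 matched a symbol and GRCh38.p14 position in RefSeq's gene table. Counts were fitted over the whole table with edgeR 4.0.16 in R 4.3.3 (TMM scaling, filterByExpr with minimum count 10 and minimum total 15, quasi-likelihood F test of FAP minus control, two-sided, no covariate), with Benjamini-Hochberg adjustment over 13373 genes. The common biological coefficient of variation was 11.8%. Standard errors are the fold change over the square root of F, and intervals are approximate. CPM is scaled by TMM. DESeq2 1.42.0, limma-voom (limma 3.58.1), other scalings and filters, a replicate block and leaving out each library were alternatives. The test was tried on simulated data. All tested members, the 6 untested with most counts and those at 0 were named, with, of each partner list, called genes or the 2 with the smallest p, and ACAN, VCAN, TIMP3 and LRP1. Members and lists were chosen with earlier results of these data known. Figures used matplotlib 3.10.9.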

Additional observations from a re-analysis of the deposited data

How the results depend on the processing

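DESeq2 gave no adjusted p for 8 of the 20 tested members. Of the other 260 values of single members under the alternatives, 258 stayed on the same side of the threshold, and the 2 others were those of ADAM15, called with no low-count filter and without FAP replicate 3. The sign was the same in every fit for 15 of the 20 tested members, the exceptions being ADAM11, ADAM22, ADAMTS15, ADAMTS16 and ADAMTSL4. Values given above without 1 library were often those nearest 0, and other fits lay further from it. Without control replicate 3 ADAMTS12 was at 0.25 and PCSK7 at 0.53. ADAMTSL5 was at 1.02 without control replicate 2, and BGN at 0.65 without FAP replicate 1. The number of members called was 0 in the reported fit, 1 with no low-count filter, and 0 to 1 when single libraries were left out. The number of all genes called was 30, against 19 with library totals, 82 with DESeq2, 152 with no low-count filter, and 3 to 248 when single libraries were left out (4, 7 and 3 without control replicates 1, 2 and 3, and 38, 6 and 248 without FAP replicates 1, 2 and 3). Library totals shifted the median log2 fold change of all genes to 0.06. The number of partner genes called was 0, against 2 with DESeq2 (HBEGF and IGFBP5), 3 with no low-count filter (these and BGN), and 0 to 2 when single libraries were left out (BGN without FAP replicate 1, BGN and HBEGF without FAP replicate 3). The cause of these changes was not tested. With the replicate number as a block 44 genes were called, 0 of them members. Same-numbered libraries did not deviate together (correlations of -0.003897, 0.02028 and -0.004101) and did not all correlate best with their own number, so the numbers were not taken as pairs. Of the 24 untested members, 20 had a value with no low-count filter, with 0 called, and 16 of these had an SE above 1 on the log2 scale.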
